A study of Mus musculus with 6 samples.

Results

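The Prame and oogenesin genes of the mouse were examined in embryonic stem cells in which Ehmt2, the histone H3 lysine 9 methyltransferase also called G9a, had been reduced with siRNA. Members were all genes listed under a symbol made of Prame, of Pramel, Pramef or Oog followed by a number, and 17 of the 25239 genes in the authors' deposited table met that rule. Of these, 12 had a mean normalized count above 0 and 5 (Oog1, Oog2, Oog3, Oog4 and Pramel4) were listed at 0 over all libraries. The cells were E14, an established mouse embryonic stem cell line labelled wild type, grown in N2B27 medium with LIF and 2i, and both groups shared that background. A group of 3 libraries received a control siRNA and the other group of 3 received an siRNA against Ehmt2, each as 2 μl of a 40 μM stock carried by Lipofectamine RNAiMAX, and RNA was collected on day 3. The series title is about the granular component of the nucleolus and the genomic domains that associate with it. Transfected cells were not sorted, as far as the labels say, and nothing in the labels says that the libraries came from separate cultures, so p-values measure the spread between these libraries, which may be technical.

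PRAME proteins are built of leucine-rich repeats and the family has many copies in the mouse, most of them in tandem clusters and active in germ cells, early embryos or the testis. Human PRAME, known as a tumour antigen, acts as a substrate receptor of a Cullin 2 ubiquitin ligase and has been described as a repressor of retinoic acid receptor signalling. In mouse embryonic stem cells, Pramel7 uses the same ligase to bring about the degradation of UHRF1, the factor that guides maintenance DNA methylation, and Pramel6 and Pramel7 have both been described as supporting the naive pluripotent state. The oogenesins are family members first described in oocytes.

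All values rest on 1 comparison. For each gene the authors' deposited table gives the mean normalized count over all 6 libraries, the log2 fold change and a p-value. Values per library are not in that table, so the level in each group was taken from the mean and the fold change together and is an approximation, called the implied level here. Log2 fold changes are Ehmt2 siRNA over control siRNA, a direction read from Ehmt2 itself, which was at 34.7% of its control level (95% interval 29.4% to 41.0%) and so cannot check the labels. Depth per library is unknown, and size factors recovered from single-read genes ran from 0.845 to 1.25. All 8 embryonic stem cell markers examined, Pou5f1, Sox2, Nanog and Zfp42 among them, had mean normalized counts from 19551 to 122043 in the authors' deposited table, and none passed the test. Over all 20461 genes with a p-value, 5.45% rose and 4.82% fell at a Benjamini-Hochberg adjusted p below 0.05.

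The sequences around the start sites are shown for the 4 genes that rose, for Pramef12, which has the highest level, and for Pramel1, which has the most CpG dinucleotides. Each is 300 bases from RefSeq on GRCm38.p6, written 5′ to 3′ from 250 bases before to 50 bases after the start, with each CpG dinucleotide in capitals.
Pramel6, chr2:87506315-87506614, plus strand: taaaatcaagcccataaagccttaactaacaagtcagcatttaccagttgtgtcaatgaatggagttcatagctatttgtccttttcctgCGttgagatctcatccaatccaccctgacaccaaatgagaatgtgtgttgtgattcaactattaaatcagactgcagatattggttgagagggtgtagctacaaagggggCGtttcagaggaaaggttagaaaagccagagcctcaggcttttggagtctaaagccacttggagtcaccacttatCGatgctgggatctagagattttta
Pramel3, chrX:135302066-135302365, plus strand: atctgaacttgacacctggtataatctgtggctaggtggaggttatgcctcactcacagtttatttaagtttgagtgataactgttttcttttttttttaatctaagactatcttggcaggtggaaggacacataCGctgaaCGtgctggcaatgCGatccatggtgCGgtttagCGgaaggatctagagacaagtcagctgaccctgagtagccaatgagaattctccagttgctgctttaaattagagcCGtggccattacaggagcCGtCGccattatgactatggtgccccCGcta
Pramef17, chr4:143994320-143994619, minus strand: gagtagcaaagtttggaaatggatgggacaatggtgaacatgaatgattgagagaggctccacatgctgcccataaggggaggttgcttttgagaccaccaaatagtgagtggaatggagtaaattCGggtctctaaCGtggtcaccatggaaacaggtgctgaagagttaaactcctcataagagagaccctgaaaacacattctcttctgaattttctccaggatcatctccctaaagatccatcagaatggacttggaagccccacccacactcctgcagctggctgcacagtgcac
Pramel7, chr2:87492369-87492668, minus strand: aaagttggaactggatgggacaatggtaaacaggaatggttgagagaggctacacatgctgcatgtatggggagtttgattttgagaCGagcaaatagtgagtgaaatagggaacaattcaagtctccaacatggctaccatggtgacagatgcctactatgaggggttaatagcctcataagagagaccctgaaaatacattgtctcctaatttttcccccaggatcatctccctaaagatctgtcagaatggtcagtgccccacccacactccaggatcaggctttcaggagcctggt
Pramef12, chr4:144408415-144408714, minus strand: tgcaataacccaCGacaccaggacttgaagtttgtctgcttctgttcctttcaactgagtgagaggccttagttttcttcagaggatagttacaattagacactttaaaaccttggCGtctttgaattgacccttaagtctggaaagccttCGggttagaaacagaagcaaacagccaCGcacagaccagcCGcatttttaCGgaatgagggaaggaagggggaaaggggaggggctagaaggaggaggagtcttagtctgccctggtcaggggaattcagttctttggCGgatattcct
Pramel1, chr4:143394191-143394490, plus strand: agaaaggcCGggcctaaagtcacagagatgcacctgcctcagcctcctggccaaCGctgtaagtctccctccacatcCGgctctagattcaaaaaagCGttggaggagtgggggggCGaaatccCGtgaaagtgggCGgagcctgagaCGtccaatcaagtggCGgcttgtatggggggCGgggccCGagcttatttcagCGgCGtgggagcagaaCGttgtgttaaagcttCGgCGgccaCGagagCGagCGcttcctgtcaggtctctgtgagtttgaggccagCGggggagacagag

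These windows differ in their CpG content. The window of Pramel6 holds 3 CpGs, that of Pramel3 holds 9, that of Pramef17 holds 2 and that of Pramel7 holds 1. Pramef12 has 7, which is also the median over 32851 mouse promoter windows, and Pramel1 has 20. The windows of Oog1, Oog2 and Oog3 hold 1 CpG each and that of Pramel5 holds 0. Promoter windows were found for 16 of the 17 members, Pramef8 being the exception. The RefSeq start of Pramel7 lies 4675 bases downstream of the first base of the longer gene model used for its coordinates here. The starts of Pramef17 and Pramel7 both fall on an atg, so the CpG counts of these windows may not be those of promoters.

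Stretches of identical sequence were searched between whole member windows, a search made after the sequences had been seen. Those given here end before the start. The longest stretch, 111 bases, is shared by Pramel4, which is listed at 0, and Pramel5, and ends at positions -117 and -123, counted from their starts. Pramef17 and Pramel7, on chromosomes 4 and 2, share 23 bases that end about as far before each start, at -52 in Pramef17 and -53 in Pramel7. The Pramel7 window lies inside the longer model of that gene. In both genes the sequence from the start opens with atg, as a coding sequence does. Their annotated starts may not be those of transcription, so the 23 bases need not be promoter sequence in either gene. Prame and Pramel3, both on the X chromosome, share 17 bases that end at -45 and -46. Oog1 on chromosome 12 and Oog4 on chromosome 4 share 31 bases with a TATATA end. They are shown with the most similar stretch of Pramel6, in which capitals mark the bases that match the oogenesin block. Pramef6, which is not shown, matches more bases of the block than Pramel6.
Pramel4 and Pramel5: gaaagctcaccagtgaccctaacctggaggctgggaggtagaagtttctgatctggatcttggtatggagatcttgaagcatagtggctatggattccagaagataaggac
Pramef17 and Pramel7: cctcataagagagaccctgaaaa
Prame and Pramel3: gagacaagtcagctgac
Oog1 and Oog4: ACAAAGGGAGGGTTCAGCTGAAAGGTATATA
Oog3: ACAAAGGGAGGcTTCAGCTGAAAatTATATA
Pramel6: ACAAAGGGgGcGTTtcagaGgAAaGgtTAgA

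Oog2 and Oog3 match 28 of the 31 bases, Pramef6 matches 21, and Pramel6 and Pramel3 match 19. Of all mouse promoter windows, 0.843% hold a stretch that matches 19 or more bases. Another 3 motifs were looked for on both strands. CACGTG was in 0 of the 16 member windows and in 7.15% of all windows, and TCCCGC was in 0 and in 20.0%. TATAAA was in 2 (Oog2 and Oog3) and in 13.6%. In Oog2 and Oog3 the TATAAA match overlaps the TATATA end of the oogenesin block, so it is not a separate feature. These matches are descriptions of letters in a window of fixed length.

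Of the 12 detected members, 4 rose and 0 fell at an adjusted p below 0.05, beside 5.45% and 4.82% of all tested genes (10.3% in either direction). The 4 that rose were Pramel6, Pramel3, Pramef17 and Pramel7. Of the unadjusted p-values below 0.05, 7 belonged to members that were higher and 0 to members that were lower, against 10.2% and 9.54% of all genes. The log2 fold change was above 0 in 11 of the 12, against 51.1% of all genes, with a median of 1.17 against 0.01. Members are similar copies that can share reads and neighbours, so these counts are not counts of independent events.

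**Figure D1:**
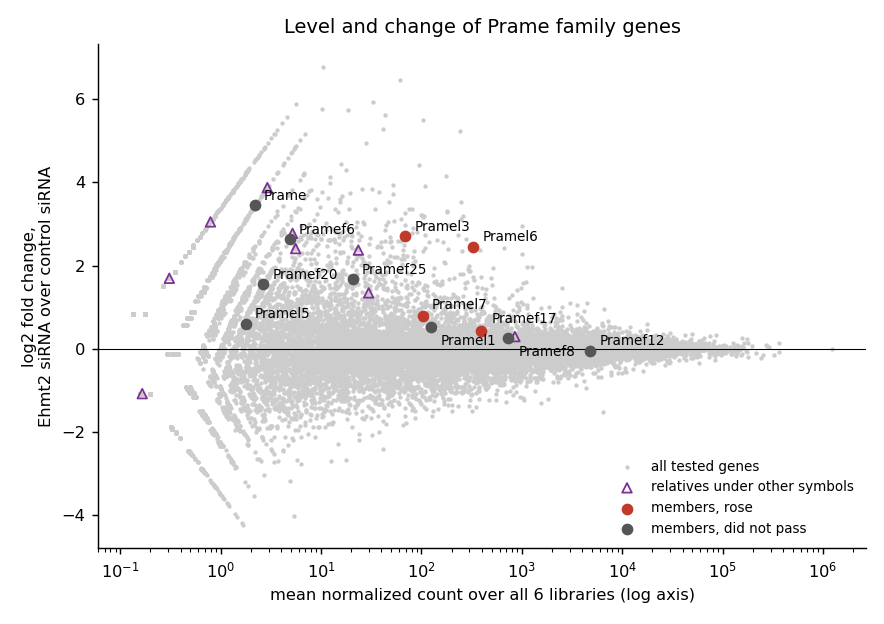
Log2 fold change (Ehmt2 siRNA over control siRNA) against the mean normalized count over all 6 libraries on a log axis, for all 20461 tested genes (grey), the 12 detected members (filled circles, red where they rose) and 9 related genes under other symbols (triangles). Pramel6 and Pramel3 lie well above the bulk of genes of their level, Pramef12 at a mean of 4815 lies on the zero line, and the members with a mean under 10 lie among genes of scattered fold changes.

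Pramel6 had the smallest p of the family. It lies on chromosome 2 at chr2:87506565-87510872 on the plus strand of GRCm38, with 4 exons. In the authors' deposited table its mean was 330.1 normalized counts and its log2 fold change 2.46 (95% interval 2.11 to 2.80, SE 0.17), with an adjusted p of 7.33e-42, the 12th smallest p of all tested genes. Its implied level went from 102 normalized counts in the control siRNA group to 559 in the Ehmt2 siRNA group, a 5.49-fold rise (4.33 to 6.96). No window of 150 bases, the read length, in its longest transcript is also in a transcript of another gene to which it aligns.

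Pramel7, its neighbour and the member best known for targeting UHRF1, rose less. It lies head to head with Pramel6 at chr2:87489087-87497093 on the minus strand. In the authors' deposited table its mean was 102.8 and its log2 fold change 0.78 (0.25 to 1.32), with an adjusted p of 0.0428. The implied level went from 75.5 to 130 normalized counts, a 1.72-fold rise (1.19 to 2.50). The intervals of the fold changes of Pramel6 and Pramel7 do not overlap, and none of the 150-base windows of Pramel7 is shared with another gene either. The implied levels of Pramel6 and Pramel7 were 102 and 75.5 normalized counts in controls, and 559 and 130 after Ehmt2 siRNA.

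Pramel3, on the X chromosome at chrX:135302307-135312652 on the plus strand, had the largest fold change among members that rose. Its mean in the authors' deposited table was 68.9 and its log2 fold change 2.71 (2.11 to 3.31), with an adjusted p of 2.92e-16. The implied level went from 18.3 to 119 normalized counts, a 6.53-fold rise (4.31 to 9.90). It has near-identical copies beside it, and 49.6% of its 150-base windows are also in another gene. The detected copy, AV320801 at chrX:135494588-135504594, is 98.8% identical over 3707 aligned bases and also rose, with a mean of 80.3 and a log2 fold change of 2.78 (2.11 to 3.44, adjusted p 6.06e-14) in the authors' deposited table. No source used here says how reads were split between them. The summed implied level of both genes went from 38.7 to 260 normalized counts, a log2 ratio of 2.74. That sum shows a rise of the pair, and the value of Pramel3 alone is uncertain.

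Pramef17, which RefSeq now calls Pramel14, rose by a small step. It lies at chr4:143991119-143994369 on the minus strand. In the authors' deposited table its mean was 392.7 and its log2 fold change 0.44 (0.14 to 0.73), with an adjusted p of 0.0415. The implied level went from 334 to 451 normalized counts, a 1.35-fold rise (1.10 to 1.66). Its copy Gm13128, now Pramel30, is 99.3% identical over 1745 bases and shares 40.1% of its 150-base windows. Gm13128 had a mean of 853.6 and a log2 fold change of 0.29 with an adjusted p of 0.112, so it did not pass. The value of Pramef17 alone is therefore uncertain, and the pair together went from 1101 to 1391 normalized counts, a log2 ratio of 0.34. The calls of Pramef17 and Pramel7 both lie near the threshold and were lost when the trend on GC content was removed (log2 fold changes of 0.39 and 0.72) or the threshold was set at 0.01, while those of Pramel6 and Pramel3 held.

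**Figure D2:**
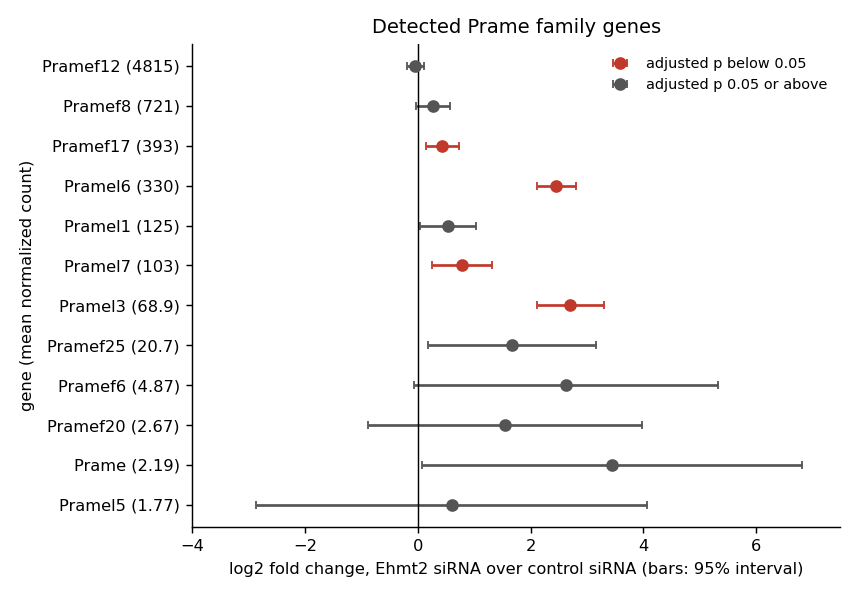
Log2 fold change of each of the 12 detected members with its 95% interval, ordered by mean normalized count, which is given in brackets. Red marks the 4 members with an adjusted p below 0.05. The intervals widen as the mean falls, and that of Pramef12 is the narrowest and spans 0.

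The most abundant member did not pass the test. Pramef12, now Pramel13, a gene described as needed for spermatogonial stem cells in the mouse, had a mean of 4815 in the authors' deposited table and a log2 fold change of -0.04 (-0.19 to 0.10), with an adjusted p of 0.909. Its implied levels were 4889 and 4740 normalized counts. The interval of its fold, 0.874 to 1.08, leaves no room for a rise of the size of that of Pramel7 or Pramel6. It lies at chr4:144391674-144408464 and overlaps an annotated antisense gene, and no source used here says whether reads were counted by strand.

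The other 3 members with a mean of at least 10 did not pass. Pramef25, now Pramel16, had a mean of 20.7 and a log2 fold change of 1.67 (0.18 to 3.17, adjusted p 0.173) in the authors' deposited table. Pramel1, a gene active in the testis, had a mean of 125.0 and a log2 fold change of 0.53 (0.04 to 1.02, adjusted p 0.194). Pramef8, now Pramel12, had a mean of 721.5 and a log2 fold change of 0.26 (-0.04 to 0.56, adjusted p 0.361). For Pramel1 and Pramef8 the upper ends of the intervals lie below the lower ends of those of Pramel6 and Pramel3. For Pramef25 the interval overlaps both.

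The 4 detected members with lower counts had log2 fold changes above 0 and none passed. In the authors' deposited table Pramef6 had a mean of 4.87 and a log2 fold change of 2.63, Pramef20 a mean of 2.67 and 1.55, Pramel5 a mean of 1.77 and 0.60. Prame itself, the gene that names the family, had a mean of 2.19 and a log2 fold change of 3.45 (0.08 to 6.82, adjusted p 0.236). At such counts the size of the change was not measurable: among all 5315 detected genes with a mean under 10, 0.941% rose, the median log2 fold change was 0.27 and 55.9% were above 0. The direction of these members was not tested as a group. Of the 5 members listed at 0, Oog1 and Pramel4 share 67.1% and 82.1% of their 150-base windows with other genes, and their nearest copies, Gm2042 and Gm13102, are listed at 0 as well. Oog4 shares none.

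Per kilobase of the longest transcript, on the scale of mean normalized counts, Pramef12 stood at 1957, Pramef17 at 224, Pramef8 at 186 and Pramel6 at 185. Pramel7 followed at 55.3, Pramel1 at 44.8, Pramel3 at 18.6 and Pramef25 at 12.3. The spread of each level over libraries is not in the table, so which neighbours in this order differ cannot be said. Pramef12 alone made up 73.1% of the summed mean of all members. The summed implied level of all members went from 6191 to 6984 normalized counts, and without Pramef12 from 1302 to 2244. In normalized counts, not divided by transcript length, the implied level of Pramel6 in controls equalled that of Pramel1 (102 each). The level of Pramel6 lay below those of Pramef12, Pramef8 and Pramef17. In the Ehmt2 siRNA group Pramef12 and Pramef8 were above Pramel6 in the same counts. The longest transcripts have 1781 bases for Pramel6, 2794 for Pramel1 and 3886 for Pramef8, so this order is not one per kilobase. In bulk samples a change in the number of cells that express a gene and a change in RNA per cell cannot be told apart.

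**Figure D3:**
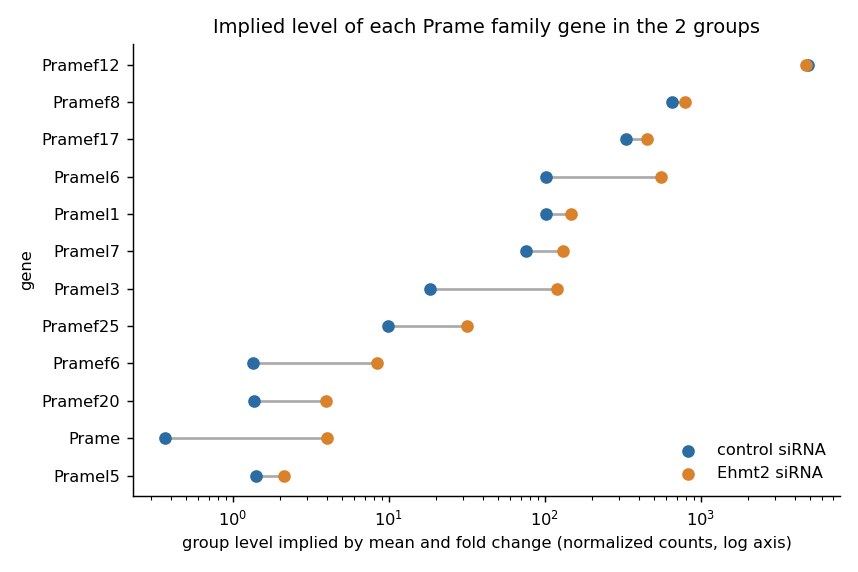
Implied level of each detected member in the control siRNA group (blue) and in the Ehmt2 siRNA group (orange), in normalized counts on a log axis. The longest line among members with a mean of at least 10 is that of Pramel3, from 18.3 to 119, followed by Pramel6, from 102 to 559, and the points of Pramef12 lie on each other.

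The members lie in 4 places, taking genes less than 1 Mb apart as a run. On chromosome 2, Pramel7 and Pramel6 form a run of 21.8 kb, and both rose. Within 500 kb on either side of it lie 49 olfactory receptor genes, of which 6 were detected, and 0 rose or fell. Of those detected, Olfr153 had a mean of 50.4 and a log2 fold change of 0.13 (-0.48 to 0.74). The others had means from 0.133 to 0.497, too low for a change to be measurable. On chromosome 4 a run of 1014.0 kb from Pramel1 to Pramef12 holds 12 members, of which 8 were detected and 1 (Pramef17) rose. The run holds 15 other genes, most of them with Prame family names in RefSeq, and of the 6 detected none passed. On the X chromosome a run of 325.4 kb holds Pramel3 and Prame with AV320801 between them. Nxf7 lies in the same run and had a log2 fold change of -0.70 (adjusted p 0.189). Within 500 kb of that run, 5 of 16 tested genes rose, Tcp11x2 (log2 fold change 3.21) and Nxf3 (1.60) among them, in the authors' deposited table. Oog1, on chromosome 12, stands alone and is at 0, while 4 of 23 tested genes within 500 kb of it rose, Gm2022 (2.58) among them. Beside these counts of members and neighbours, 5.45% of all tested genes rose and 4.82% fell. The 500 kb width, and the neighbours named, were chosen after their values had been seen.

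**Figure D4:**
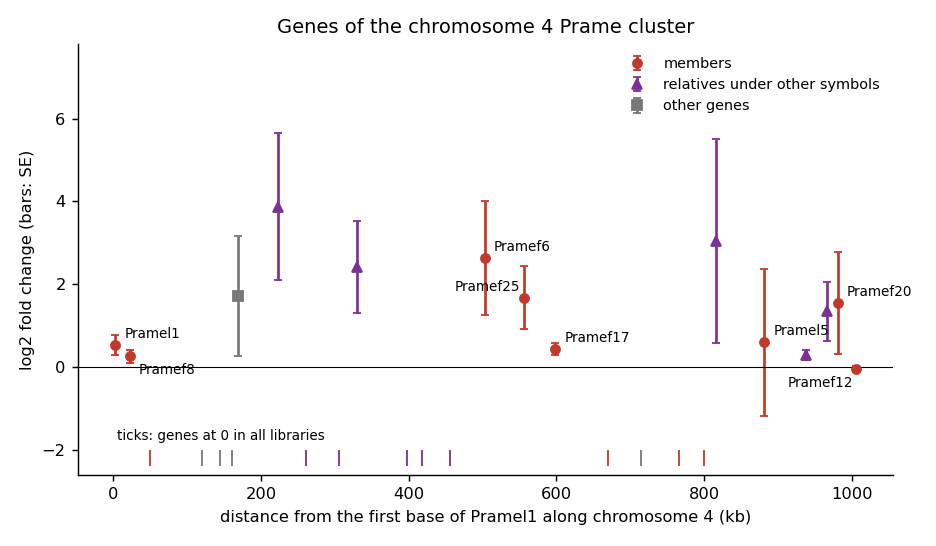
Log2 fold change with its SE (bars) of the genes in the chromosome 4 run, against the distance in kb from the first base of Pramel1. Circles are members, triangles are related genes under other symbols, and ticks at the bottom are genes at 0. The square is BC080695, which was not matched to a Prame family name but is 96.8% identical to Pramef25 over 1666 aligned bases. Members with narrow bars, such as Pramef12, Pramef8 and Pramef17, sit near 0, and higher points along the run have wide bars.

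Another 20 genes of the table carry Prame family names in RefSeq but other symbols here, so the rule did not take them. Of these, 9 were detected and 11 were at 0. Of the 9, 1 rose and 0 fell, beside 5.45% and 4.82% of all tested genes. The gene that rose was Gm12794, now Pramel19, with a mean of 23.5 and a log2 fold change of 2.37 (0.84 to 3.90, adjusted p 0.0283) in the authors' deposited table. The log2 fold change was above 0 in 8 of the 9, against 51.1% of all genes, with a median of 2.37 against 0.01. At an unadjusted p below 0.05 there were 5 higher and 0 lower, against 10.2% and 9.54% of all genes. Apart from Gm12794, Gm13119 (mean 29.8) and Gm13128, the means were 0.166 to 5.59. Among all detected genes with a mean under 10, 55.9% were above 0 and the median was 0.27. Gm13128, with the highest mean (853.6), had a log2 fold change of 0.29. Several of these relatives are similar in sequence to members, and the share of 150-base windows in common differs between pairs. Gm13083 and Pramef6 are 96.2% identical and share 10.1% of the windows of Pramef6, while Gm13119 and Pramef25 are 96.9% identical and share 0.0651% of those of Pramef25.

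Among genes that work with PRAME proteins or are described as their targets, those of the ligase and of DNA methylation had small log2 fold changes. Of the 6 tested genes of the Cullin 2 ligase core, 1 rose and 0 fell. That gene, Eloc, which encodes the elongin that contacts the receptor, had a log2 fold change of 0.25 (adjusted p 0.00123) in the authors' deposited table, and Cul2 had 0.09 (adjusted p 0.497). Of 12 other substrate receptors of Cullin 2, 0 rose and 1 fell, Zer1 at -0.30. Uhrf1, whose protein is the target described for Pramel7, had a log2 fold change of -0.12 (-0.33 to 0.08, adjusted p 0.632), and Dnmt1, the maintenance methyltransferase, had -0.06 (adjusted p 0.764). The list of 9 DNA methylation genes had 0 that rose and 1 that fell, Tet2 at -0.21, and RNA does not show UHRF1 protein.

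The retinoic acid list held 14 genes, which are receptors, binding proteins, enzymes and targets together with Ezh2, the Polycomb methyltransferase gene whose human protein has been described as a partner of PRAME at these receptors. Of them, 0 rose and 2 fell. The 2 were Crabp1, which encodes a retinoic acid binding protein (log2 fold change -1.18), and the receptor gene Rxra (-0.28). Among 8 genes of LIF and STAT3 signalling, a pathway described as upstream of Pramel7, 0 rose and 1 fell, the feedback inhibitor gene Socs3 at -0.31. The medians of these lists in the authors' deposited table were 0.09 for the ligase core, -0.06 for the other receptors, -0.06 for DNA methylation, -0.01 for retinoic acid and -0.10 for LIF and STAT3, against 1.17 for the members and 0.01 for all genes.

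**Figure D5:**
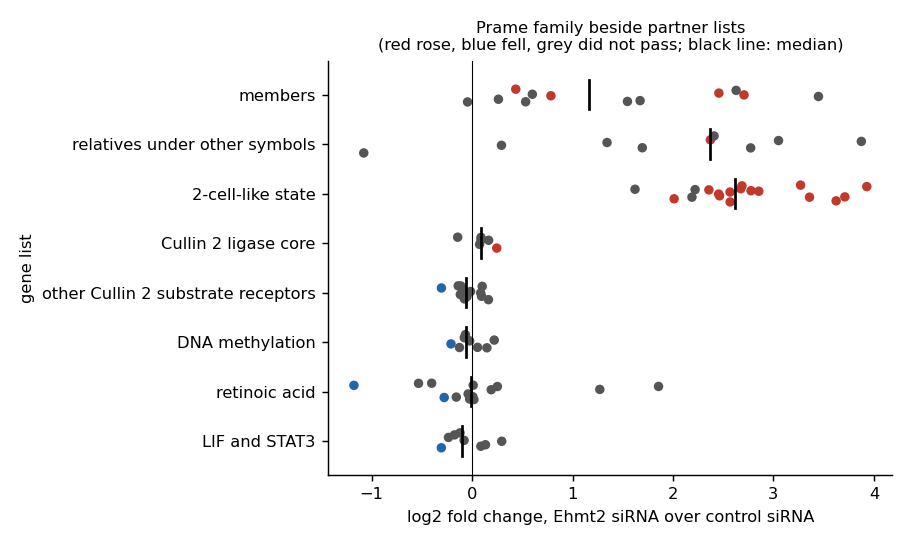
Log2 fold change of each tested gene, by list, with the median as a black line. Red points rose, blue points fell and grey points did not pass. The members spread from -0.04 to 3.45 and the 2-cell-like genes from 1.62 to 3.93. The retinoic acid list runs from -1.18 (Crabp1) to 1.86 (Rxrg, at a mean of 0.35). The ligase core, other receptors, DNA methylation and LIF lists lie between -0.31 and 0.30.

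Markers of other cell states were examined as well. The 2-cell-like state is one that few cells of such cultures pass through, with genes of the early embryo switched on. Of its 18 tested markers, 15 rose and 0 fell, beside 5.45% and 4.82% of all tested genes. Their median log2 fold change was 2.62 in the authors' deposited table. Their summed implied level went from 180 to 1251 normalized counts, and Dux, the factor that turns this state on, had a mean of 2.85 and did not pass (log2 fold change 1.62, adjusted p 0.625). Of 15 tested oocyte genes, 2 rose (Nlrp5 at 2.48 and Bmp15 at 3.37), 1 fell (Zp3 at -0.36) and the median was 0.03, with a summed implied level of 9873 and 9232 and Oosp1 at 0. Of 8 tested feeder fibroblast genes, 2 rose (Col1a2 at 2.43 and Col5a2 at 1.23) and 0 fell, with sums of 697 and 760 and Dcn at 0. Among those that did not pass, Thy1 was at -1.01 (adjusted p 0.163), Col1a1 at -0.39 and Pdgfrb at -0.33. Of 7 trophectoderm genes, 1 rose (Cdx2 at 1.31) and 2 fell (Krt8 at -1.23 and Krt18 at -1.22), with sums of 6254 and 6190. Of 7 primitive endoderm genes, 1 rose (Pdgfra at 0.64) and 1 fell (Gata4 at -1.002), 6 were below 0 and the median was -0.35, with sums of 477 and 390. The part of these cell states in the change of the Prame genes was not tested.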

How the data were processed

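RNA from 6 libraries (3 per group) was polyA-selected, made into stranded libraries and read from both ends, per the labels' protocols. FastQC, Trimmomatic 0.36, STAR, DESeq2 and the builds mm10 and GRCm38 are named in the submitters' processing notes. No source used here gives the annotation, the read counter or its use of strand. In 1 table the authors deposited a signal per gene (per the file headers, the mean over 6 libraries of counts after division by size factors), a log2 fold change and an unadjusted p-value.

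From these, p-values were adjusted over all 20461 tested genes by the Benjamini-Hochberg method (threshold 0.05), with statsmodels 0.14.6. The SE is the size of the log2 fold change over the normal quantile of its p, which assumes a Wald test, and 95% intervals follow from it. The implied level of a group splits the mean by the fold change, for groups of equal size. The adjustment and the SE were also run on simulated fold changes drawn with these same SEs. That run cannot check the Wald assumption, the direction or the implied levels.

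The members and lists were chosen with earlier results of these data known. Members with a mean of at least 10, or past the test, are named with their values. Of the related genes, of genes inside runs and of the lists other than the 2-cell-like one, those that passed are named. Uhrf1, Dnmt1 and Cul2 are named in any case. Other genes named were chosen after their values were seen. Coordinates, exons and longest transcripts come from GENCODE M21 on GRCm38, in which all 17 members (100% of them) were found. Transcripts were compared with blastn 2.17.0 and by exact 150-base windows. Alternatives in thresholds, filters, adjustment, centring and GC content were tried.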

Additional observations from a re-analysis of the deposited data

How the results depend on the processing

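Of the members, 4 rose and 0 fell under adjustment over genes with a mean of at least 10 or of at least 50, after recentring (a shift of -0.002), and over the 16543 genes that come before the table's alphabetical tail, an alternative added after the data had been seen. With an adjusted p below 0.01, when a 1-unit log2 fold change was also required, under Bonferroni or Benjamini-Yekutieli adjustment, and with the trend on GC content removed, 2 rose (Pramel3 and Pramel6) and 0 fell. Pramef17 and Pramel7 lost their calls in those 5 settings and kept their direction. With the GC trend removed their log2 fold changes were 0.39 and 0.72, beside 2.42 for Pramel6 and 2.59 for Pramel3. Of the values of the 8 named members under these alternatives, 61 kept their side of the threshold, 10 lost the call and 0 reversed. Over all genes, 726 rose and 601 fell at 0.01, 429 and 155 with the 1-unit requirement, and 311 and 212 under Bonferroni. Under Benjamini-Yekutieli the counts were 625 and 499, and with the GC trend removed 891 and 703 of 19896, beside 1116 and 987. At a mean of at least 10, with 8 members tested, 1137 of 15146 genes rose and 1086 fell. At a mean of at least 50, with 7 members tested, the counts were 968 and 1032 of 12922. After recentring, with 12 members tested, they were 1124 and 970. Before the alphabetical tail, with 9 members tested, they were 1171 and 1063 of 16543. The cause was not tested where a stricter rule does not show it. No paired analysis was possible because the table holds no values per library, and for the same reason no library could be left out and no second normalization or count test could be run. The depth of each library is unknown.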
